A study of Mus musculus with 10 samples.

Results

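The comparison set the middle of cortical neurogenesis, the embryonic stages E14, E15.5 and E17, against both ends of the series, E12.5 and the day of birth (P0), to find transcripts that peaked or dipped in between. It used all 10 libraries, 6 from the middle stages and 4 from the ends, and 6048 of the 6147 genes listed, those whose level averaged 1 TPM or more over the libraries. TPM is the share of a gene's transcripts among all transcripts of a library, per length and on a fixed total. The contrast was the mean of the 3 middle stage means minus the mean of the 2 end stage means, on log2(TPM + 1). A positive contrast alone does not show a peak, since a gene that moves one way but unevenly also gives one. A gene was therefore called peaked when the middle was higher than both ends together, than E12.5 alone and than P0 alone, each with a Benjamini-Hochberg adjusted p under 0.05 in limma, and dipped when it was lower in all 3. By that rule 98 genes peaked and 91 dipped. Nearest the limits, the largest of the 3 adjusted p-values was 0.04995 for Acvr1 (peaked) and 0.05137 for Ralgps2 (not peaked), and 0.04821 for Eif2s2 (dipped) and 0.05178 for Eps15 (not dipped). Fermt3 at 1.00128 TPM was tested and Mmrn2 at 0.990 TPM was not.

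The study sequenced polyadenylated RNA from bulk neocortex of CD1 mice, an outbred strain, all wild type, at 5 stages with 2 libraries each, described as biological duplicates. All groups shared strain, genotype and tissue, with no treatment and differed in age, E for days of embryonic life and P0 for the day of birth. The tissue was frozen and ground whole, so each value is an average over all cells of the dissected piece, and fewer cells of a type and less RNA per cell cannot be told apart. The labels name no litter, sex or batch, and p-values measure the spread between these libraries.

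During neurogenesis, radial glia along the ventricle divide and give rise to intermediate progenitors and to neurons, and the newborn neurons migrate outward and settle, deep layers first and upper layers later. While they migrate and send out their axons they express a transient programme of transcription factors, cytoskeletal regulators, adhesion molecules and guidance receptors. Part of it is switched off again as the cells mature, and after birth synaptic and glial genes take over.

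The libraries differed in precision. Over genes, the difference between the E17 replicates had an SD of 0.285 on the log2 scale, while other stages gave SDs from 0.0880 to 0.176. The E17 difference followed transcript length across genes (Pearson r = 0.55, a description over 6048 genes that share 2 libraries), with replicate 1 above replicate 2 for 72.0% of all genes. The listed genes held between 68.9% and 71.7% of all TPM. Emx1, a transcription factor of the cortical lineage, was present in every library, at between 51.0 and 177 TPM.

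Across all genes the contrast was centred near 0, with a median of 0.01 and a median SE of 0.0694 on the log2 scale. It was called for 1428 genes (23.6%), of which 760 were higher in the middle (12.6%) and 668 lower (11.0%). Most of these did not peak or dip. Of the 760 higher genes, 498 had a middle mean that lay between the ends, and 164 had one beyond both ends but not called against one of them. The other 98 peaked, 1.62% of all genes tested. Of the 668 lower genes, 367 lay between the ends and 210 beyond both without being called against one, and 91 dipped (1.50%). Against E12.5 alone the middle differed for 65.7% of genes (higher for 23.4%, lower for 42.3%) and against P0 alone for 65.2% (higher for 42.3%, lower for 22.9%). Among the called genes, a middle between the ends (498 and 367) was more common than a peak or dip by the rule (98 and 91).

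**Figure D1:**
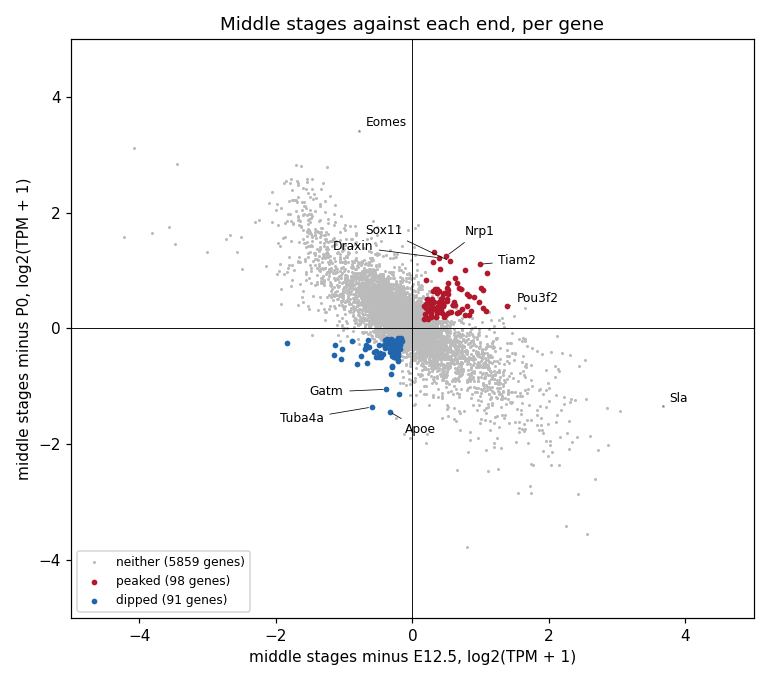
Each point is a gene, with the middle stages minus E12.5 on the x axis and the middle stages minus P0 on the y axis, both on log2(TPM + 1). Of the 6048 genes, those with a middle between the ends lie in the upper left or lower right. The 98 peaked genes (red) lie in the upper right and the 91 dipped genes (blue) in the lower left. Eomes and Sla have large contrasts with both ends together but lie outside the corners of the peaked and dipped genes.

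Genes with large one-way changes could have large contrasts without peaking. Eomes, the transcription factor that marks intermediate progenitors, measured 163 and 172 TPM at E12.5, 171 and 164 at E14, 99.7 and 99.6 at E15.5, 63.1 and 47.5 at E17, and 8.28 and 8.20 at P0. Its level overlapped between E12.5 and E14 and was lower at each later stage, with no overlap between neighbouring stages from E14 on. The contrast with both ends was 1.31 (SE 0.07, adjusted p = 2.37e-06), made of a difference of -0.78 from E12.5 and of 3.41 from P0. Sla, which encodes a Src-like adaptor protein, rose from 15.3 and 16.5 TPM at E12.5 to 514 and 582 at P0, and most of its rise came by E15.5 (423 and 416), which gave a contrast of 1.16 (SE 0.06, adjusted p = 1.07e-06). Gfap, an intermediate filament of astrocytes, was lowest of the astrocyte markers at -1.49 (SE 0.07, adjusted p = 1.07e-06), with 27.7 and 25.5 TPM at P0 against at most 1.98 in any earlier library.

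The 98 peaked genes changed modestly. Their median contrast was 0.45 on the log2 scale, against 0.01 over all genes, and these values chose the genes. The contrast was at least 0.5 for 39 of them and at least 1 for 2. The highest stage mean was at E17 for 53, at E15.5 for 43 and at E14 for 2, and the lowest at P0 for 51 and at E12.5 for 46. All 3 middle stage means lay above both ends for 82. The 6 middle libraries lay above all 4 end libraries for 54 of the 98, where 1.31% of all genes tested had that order, and this order follows in part from the rule. P0 was above E12.5 for 15 (27.1% of all genes), below it for 15 (51.0%) and not called for 68.

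The timing of the turn could be read from neighbouring stages. Between E12.5 and E14, 9 of the 98 rose (3.95% of all genes), and between E14 and E15.5, 50 rose (18.4%) and 0 fell (33.3% of all genes fell). Between E15.5 and E17, 11 rose (14.4%) and 5 fell (10.6%). Between E17 and P0, 90 of the 98 fell, where 28.8% of all genes fell, and 0 rose. The neighbouring steps use the same libraries as the rule and are given as a description. The median peaked gene lay 0.21 above the mean of the ends at E14, 0.52 at E15.5 and 0.52 at E17.

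**Figure D2:**
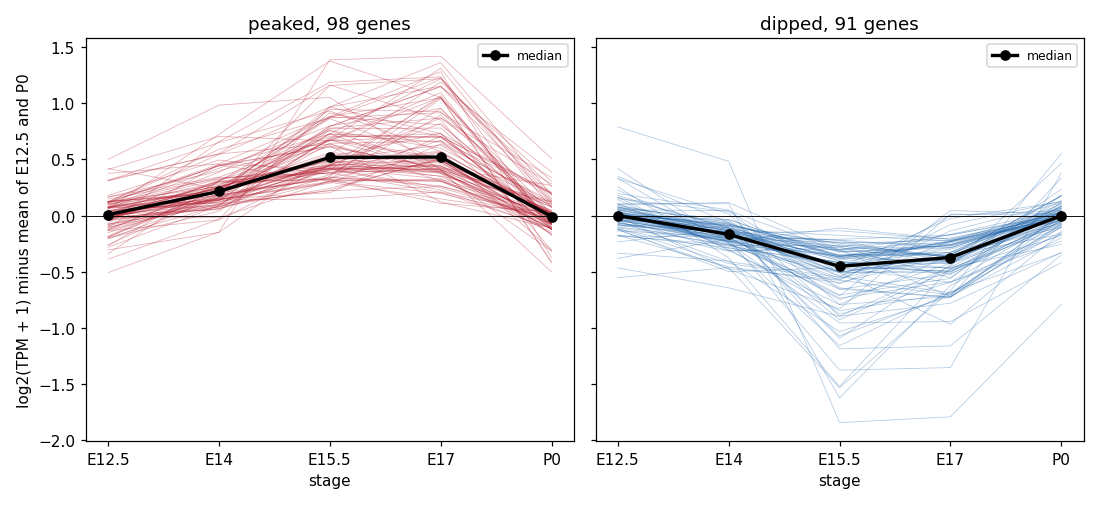
Stage means of the 98 peaked genes (left, red) and the 91 dipped genes (right, blue), 1 line a gene, as log2(TPM + 1) minus the mean of E12.5 and P0, against stage, with the median in black. The peaked median rises to 0.52 at E15.5 and E17, and the dipped median falls to -0.45 at E15.5 and -0.37 at E17.

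Transcription factors of newborn neurons included the most abundant peaked gene. Sox11, a SoxC factor expressed in newborn neurons, had the highest mean TPM of all peaked genes. It measured 1393 and 1289 TPM at E12.5, 1602 and 1567 at E14, 2448 and 2395 at E15.5, 2164 and 1763 at E17, and 822 and 928 at P0. All 6 middle libraries were above all 4 end libraries, with E15.5 highest and P0 lowest. The contrast was 0.85 (SE 0.07, adjusted p = 3.49e-05), with 0.55 above E12.5 and 1.16 above P0.

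Its SoxC relative Sox4 measured 650.1 and 631 TPM at E12.5, 736 and 707 at E14, 1095 and 1116 at E15.5, 919.8 and 796 at E17, and 535 and 620.3 at P0. Sox4 had the same order of stages as Sox11, without overlap between the middle and the ends, and a contrast of 0.53 (SE 0.06, adjusted p = 0.000187). Pou3f2 (Brn2), a POU factor of migrating and upper layer neurons, measured 83.6 and 72.3 TPM at E12.5, 98.6 and 102 at E14, 286 and 297 at E15.5, 313 and 284 at E17, and 143 and 174 at P0. Its peak was late and uneven, since the E14 libraries lay under those of P0, and the contrast of 0.89 (SE 0.07, adjusted p = 2.48e-05) joined a difference of 1.39 from E12.5 with one of 0.38 from P0. Pou3f2 lost the call without P0 replicate 1 and with both E17 libraries left out. It also lost it with the middle taken without E15.5 or without E17. Neurod2, a bHLH factor of postmitotic excitatory neurons, went from 249 and 246 TPM at E12.5 to 523 and 512 at E15.5 and 657 and 462 at E17, and to 381 and 353 at P0. It was 0.86 above E12.5 and 0.30 above P0 (adjusted p = 0.0281), and its E14 libraries (328 and 314) lay under those of P0. The peaked call of Neurod2 was lost without E14 replicate 1, E15.5 replicate 1, P0 replicate 1 or P0 replicate 2, and under median-of-ratios scaling. Taking the middle without E15.5 or without E17 also ended it. Sox5, which acts in deep layer and subplate neurons, was highest at E15.5 (180.2 and 169 TPM) and lowest at P0 (52.4 and 66.1), with one E17 library (96.2) under both E12.5 libraries (122 and 116). Its contrast was 0.81 (SE 0.09, adjusted p = 0.000112), with 0.31 above E12.5 and 1.31 above P0. The call was lost without either E12.5 library or E15.5 replicate 1, and with the middle taken without E14 or without E15.5.

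Promoter windows of 4 peaked genes are shown for sequence context: Sox11 as the most abundant, the POU and bHLH factors, and Serpini1 (neuroserpin, a secreted protease inhibitor of neurons). Serpini1 was not named by rule and is shown for the E-box searched. Of these 4, it and Neurod2 held that E-box, and the share of all peaked genes that did is given below. They come from RefSeq's table for GRCm38.p6, up to 250 bases before the start, without annotated exons, 5′ to 3′ on the gene's strand. Sox11 is at chr12:27342719-27342968 (minus strand), Pou3f2 at chr4:22488367-22488616 (minus), Neurod2 at chr11:98329649-98329895 (minus) and Serpini1 at chr3:75557243-75557492 (plus). Capitals mark CAGATG, an E-box of the kind bound by Neurod and Neurog factors.
Sox11: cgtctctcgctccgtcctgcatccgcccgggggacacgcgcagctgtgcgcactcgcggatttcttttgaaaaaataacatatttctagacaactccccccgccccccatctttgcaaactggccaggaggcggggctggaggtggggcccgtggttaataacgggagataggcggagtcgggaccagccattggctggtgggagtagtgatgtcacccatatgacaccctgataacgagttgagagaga
Pou3f2: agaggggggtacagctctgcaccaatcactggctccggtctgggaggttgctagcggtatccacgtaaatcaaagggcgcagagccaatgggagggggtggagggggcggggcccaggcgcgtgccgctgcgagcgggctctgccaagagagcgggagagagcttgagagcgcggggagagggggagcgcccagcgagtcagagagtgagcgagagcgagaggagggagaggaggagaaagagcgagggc
Neurod2: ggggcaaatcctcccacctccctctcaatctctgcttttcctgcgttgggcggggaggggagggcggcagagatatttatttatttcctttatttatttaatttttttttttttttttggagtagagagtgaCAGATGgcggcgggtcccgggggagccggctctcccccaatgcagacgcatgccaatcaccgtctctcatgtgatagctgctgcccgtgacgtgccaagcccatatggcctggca
Serpini1: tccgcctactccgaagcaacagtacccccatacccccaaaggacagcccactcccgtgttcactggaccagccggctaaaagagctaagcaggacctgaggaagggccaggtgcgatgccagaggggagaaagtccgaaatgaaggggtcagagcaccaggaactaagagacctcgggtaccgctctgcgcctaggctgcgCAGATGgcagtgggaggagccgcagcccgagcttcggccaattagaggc
Windows from 250 bases before to 50 after the start were found by symbol for 78 of the 98 peaked genes, 73 of the 91 dipped genes and 4769 of the 6048 tested. On either strand CAGATG stood in the windows of 16.7% of the peaked, 15.1% of the dipped and 12.1% of the tested genes, and of 19.2% of all 27025 genes in the table. ACAAAG, a SOX core motif, stood in 19.2%, 16.4%, 15.7% and 21.0%, and the octamer ATGCAAAT of POU factors in 0%, 1.37%, 1.20% and 1.97%. The 3 motifs, which do not overlap one another, were chosen because genes of those factor families had peaked, and a match is a description of letters only.

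Regulators of the cytoskeleton and of migration were next. Tiam2, a guanine exchange factor that activates Rac1 in migrating neurons and growing neurites, had the largest contrast of the peaked genes. It lies at chr17:3326573-3531344 on the plus strand in GRCm38. It measured 30.8 and 34.2 TPM at E12.5, 52.9 and 51.2 at E14, 82.8 and 82.0 at E15.5, 78.7 and 54.7 at E17, and 27.7 and 32.2 at P0. The middle libraries were all above the end libraries, and the 2 ends were alike, with overlapping values. The contrast was 1.05 (SE 0.09, adjusted p = 3.99e-05), with 0.99 above E12.5 and 1.11 above P0. Its exons overlap those of Tfb1m on the other strand, and no source used here says whether reads were counted by strand. Nuak1, a kinase related to AMPK that acts in axon branching, measured 130.1 and 133 TPM at E12.5, 179.9 and 172 at E14, 231 and 242 at E15.5, 239 and 168 at E17, and 107 and 115 at P0. Its middle libraries were again all above the ends (contrast 0.75, SE 0.08, adjusted p = 0.000134).

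Of the 33 tested genes of the list of migrating newborn neurons, 23 were higher in the middle (12.6% of all genes were) and 0 lower (11.0%), with a median contrast of 0.38 against 0.01 over all genes. Of these, 8 peaked (Tiam2, Cntn2, Pou3f2, Nrp1, Sox11, Sema3c, Neurod2 and Sox4), where 1.62% of all genes did. The lowest was Flna, an actin crosslinker, at -0.14 (SE 0.11, adjusted p = 0.417). The other 15 of the 23 were higher than both ends together without passing against each of them. Over 27 alternatives at the same threshold the number higher ran from 15 to 26 and the number peaked from 6 to 11. The list holds genes that earlier results on these data had shown to move, so the count is a description. Of the 37 tested genes for growth cones and actin, 4 were higher and 3 lower (12.6% and 11.0% of all genes), 0 peaked, and the median was -0.01. Those counts became 6 and 5 without E17 replicate 1, 11 and 6 without E17 replicate 2, and 1 to 3 and 0 to 2 without any other single library. The highest was Stmn4, a microtubule-destabilising stathmin, at 0.55, with levels that went one way from 56.1 and 57.1 TPM at E12.5 to 653 and 693 at P0. The lowest was Marcks, an actin-binding substrate of protein kinase C, at -0.22 (SE 0.06, adjusted p = 0.0205).

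**Figure D3:**
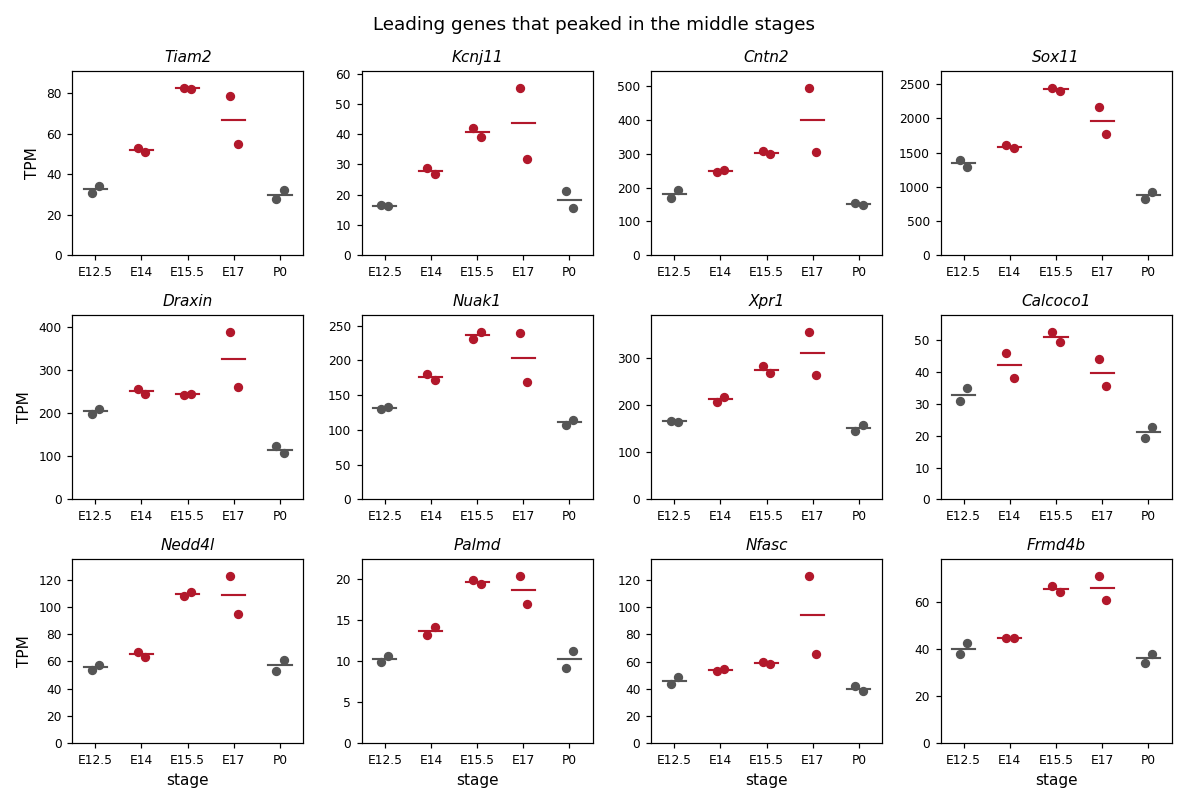
TPM in each library (points) and the mean of the 2 replicates (bar) by stage for the 12 peaked genes with the largest contrasts among genes that average 10 TPM or more and whose middle and end libraries do not overlap; middle stages in red, ends in grey, each y axis from 0. All 6 red points lie above all 4 grey points in each panel, and the E17 replicates lie farthest apart, as for Cntn2 (496 and 306 TPM).

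Adhesion and recognition molecules formed the next group. Cntn2 (TAG-1), a cell adhesion molecule of corticofugal axons, measured 169 and 192 TPM at E12.5, 247 and 253 at E14, 307 and 299 at E15.5, 496 and 306 at E17, and 156 and 149 at P0. Every middle library was above every end library, and E17 replicate 1 stood far above the rest. The contrast was 0.90 (SE 0.11, adjusted p = 0.000212). Cdh13 (T-cadherin) measured 26.7 and 28.7 TPM at E12.5, 43.7 and 44.1 at E14, 68.4 and 62.6 at E15.5, 76.8 and 59.3 at E17, and 46.8 and 43.1 at P0. It was 1.04 above E12.5 and 0.36 above P0, and its E14 libraries lay within the range of the end libraries; without P0 replicate 2 it was not called peaked. Nfasc (neurofascin), which organises the axon initial segment, measured between 53.1 and 65.3 TPM in 5 middle libraries and 123 in E17 replicate 1, against 38.3 to 48.6 at the ends (contrast 0.61, SE 0.14, adjusted p = 0.00857). Leaving out either E12.5 library or P0 replicate 2 ended the peaked call of Nfasc, as did taking the middle without E17.

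Celsr3, an atypical cadherin needed for forebrain axon tracts, had a contrast of 0.48 (SE 0.15, adjusted p = 0.0333), and Ptprz1, a receptor phosphatase of radial glia, one of 0.53 (SE 0.07, adjusted p = 0.000415). Ptprz1 was only 0.22 above P0 (adjusted p = 0.0446), and it kept the call in 9 of 26 alternatives. Celsr3 kept it in 12, and lost it without any single library other than those of E17, where replicate 1 read 32.3 TPM and replicate 2 read 16.4. Bcan (brevican), a proteoglycan of the neural matrix, was the only dipped gene of the list of 46 adhesion genes, at -0.55 (SE 0.10, adjusted p = 0.00249), and it kept that call in 14 of 26, being lost without any single E12.5, E14 or E15.5 library. Of the 46, 17 were higher and 4 lower (12.6% and 11.0% of all genes), and the median was 0.19. The counts were 21 and 6 without E17 replicate 1, 32 and 5 without E17 replicate 2 (9 peaked), and 10 to 12 and 2 to 3 without any other single library, when 0 to 3 peaked. The highest was Celsr1 at 0.77 (SE 0.16, adjusted p = 0.00587) and the lowest Fat1 at -0.56 (SE 0.11, adjusted p = 0.00344), atypical cadherins that both lay below E12.5 in the middle (-1.25 and -1.28).

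Among axon guidance ligands, Draxin, a secreted repellent of forebrain axons, measured 199 and 209.7 TPM at E12.5, 257 and 245 at E14, 243 and 244 at E15.5, 390.3 and 262 at E17, and 124.5 and 107 at P0. The middle libraries were all above the ends, though by little against E12.5, and the contrast of 0.81 (SE 0.09, adjusted p = 0.000188) came more from P0 (1.22) than from E12.5 (0.40). Leaving out either E12.5 library ended its peaked call, as did taking the middle without E17. Sema3c, a secreted semaphorin, measured 17.6 and 17.5 TPM at E12.5, 18.8 and 21.8 at E14, 30.5 and 31.1 at E15.5, 47.2 and 49.5 at E17, and 20.03 and 20.6 at P0. It stood highest at E17 in both replicates, overlapped with P0 at E14, and had a contrast of 0.70 (SE 0.06, adjusted p = 4.22e-05).

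Receptors peaked as well. Nrp1, a co-receptor for class 3 semaphorins, measured 26.8 and 27.4 TPM at E12.5, 26.8 and 30.9 at E14, 38.8 and 39.0 at E15.5, 62.5 and 42.5 at E17, and 15.9 and 15.4 at P0. It overlapped with E12.5 only at E14, and the contrast was 0.87 (SE 0.10, adjusted p = 0.000127). Nrp1 lost the peaked call with the middle taken without E17. Robo1, a receptor for Slit ligands, went from 17.2 and 17.3 TPM at E12.5 to 34.0 and 33.5 at E15.5 and 50.6 and 37.2 at E17, and to 20.2 and 21.9 at P0 (contrast 0.69, SE 0.08, adjusted p = 0.000208). Its middle libraries were not all above the end libraries, with the overlap at E14. Plxna3, a plexin that signals for semaphorins, was highest at E17, where replicate 1 read 43.8 TPM and replicate 2 read 25.9, against 14.9 to 22.7 in the 8 other libraries (contrast 0.48, SE 0.12, adjusted p = 0.016). It lost the call without E12.5 replicate 1 or 2, E14 replicate 2, E15.5 replicate 1 or P0 replicate 2. Taking the middle without E17 ended the call of Plxna3 as well. Of the 25 guidance genes tested, 9 were higher and 2 lower (12.6% and 11.0% of all genes), the median was 0.29, and 3 peaked (Draxin, Robo1 and Plxna3). Nrp1 and Sema3c were counted in the migration list instead. Against E12.5 alone 7 of the 25 were higher and 11 lower (23.4% and 42.3% of all genes), with a median of -0.16. Against P0 alone 16 were higher and 3 lower (42.3% and 22.9%), with a median of 0.73. With E17 replicate 2 left out 18 were higher and 7 peaked, and with E17 replicate 1 left out 13 were higher and 4 lower. Only 1 of the 25 peaked without either E12.5 library, and 2 without E14 replicate 2, E15.5 replicate 1 or P0 replicate 2. The lowest was Efna5, an ephrin, at -0.49 (SE 0.08, adjusted p = 0.00193).

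Other leading peaked genes had varied roles. Kcnj11, the pore subunit of ATP-sensitive potassium channels, measured 16.7 and 16.2 TPM at E12.5, 28.9 and 26.9 at E14, 42.1 and 39.2 at E15.5, 55.4 and 31.9 at E17, and 21.2 and 15.6 at P0. The middle and the ends did not overlap, and the contrast was 1.03 (SE 0.13, adjusted p = 0.000371), the second largest. Xpr1, a phosphate exporter, was higher by 0.72 (SE 0.08), Calcoco1, an autophagy receptor, by 0.72 (SE 0.09), Palmd (palmdelphin) by 0.69 (SE 0.08), Nedd4l, a ubiquitin ligase, by 0.69 (SE 0.08) and Frmd4b, a FERM domain scaffold, by 0.59 (SE 0.07). Each had middle libraries that were all above the end libraries, and adjusted p-values in limma between 0.000109 and 0.000208, and Calcoco1 alone of these 5 lost the peaked call in an alternative, without E12.5 replicate 1. Chd3, a subunit of the NuRD remodelling complex, was the only peaked gene of 33 for chromatin remodelling, at 0.45 (SE 0.08, adjusted p = 0.00318), a call lost without P0 replicate 1. Of those 33, 8 were higher and 1 lower (12.6% and 11.0% of all genes), with 16 higher when E17 replicate 2 was left out and 4 to 7 when a library of a stage other than E17 was. They ranged between Actl6b, the neuronal BAF subunit, at 0.51 and Rbbp7, a histone-binding protein, at -0.36. The 2 genes highest at E14, chosen after their values were seen, were Acyp1, an acylphosphatase, at 0.37 (SE 0.07, adjusted p = 0.00344), and Aldh4a1, a mitochondrial enzyme of proline breakdown, at 0.36 (SE 0.08, adjusted p = 0.00675). Acyp1 lost the call without E12.5 replicate 2, E14 replicate 1 or E15.5 replicate 2, and Aldh4a1 without either E12.5 library, E14 replicate 1 or either E15.5 library. Exons of Nedd4l, Palmd, Sox4 and Sox5, and among the dipped genes Purb, Grwd1, Cars and Hddc2, overlap a gene on the other strand.

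In the lists for progenitors, proliferation and cortical layers, only Sox5 peaked. Ptprz1 of radial glia and Pou3f2 of upper layer neurons also peaked, but were counted in the adhesion and migration lists. The shares of all genes to set beside their counts are 12.6% higher and 11.0% lower in the contrast, 42.3% below E12.5 and 42.3% above P0. Of 9 tested genes for intermediate progenitors and neurogenesis, 6 were higher, 0 lower and 0 peaked (1 without E17 replicate 2), with a median of 0.32; all 9 were above P0 and 0 above E12.5, and Igsf8, a membrane immunoglobulin protein, was lowest at -0.14 (SE 0.10, adjusted p = 0.345). Of 35 genes for proliferation and DNA replication, 11 were higher and 0 peaked, and all 35 were below E12.5 and above P0 in the middle. The 11 became 14 without E17 replicate 1, 19 without E17 replicate 2, 5 and 6 without E12.5 replicate 1 and 2, and 6 without P0 replicate 1, and with the middle taken without E14 0 were higher and 28 lower. The highest was Aurkb, a mitotic kinase, at 0.50, with a lower TPM at each later stage, from 88.7 and 93.1 at E12.5 to 4.16 and 4.77 at P0, and the lowest was Rfc3, a clamp loader subunit, at -0.11 (SE 0.06, adjusted p = 0.214). The median of that list was 0.13, but -0.08 with a pseudocount of 10 TPM and -0.33 when the middle was taken without E14. Of 18 radial glia genes 4 were higher and 4 lower, from Tnc (tenascin C) at 0.996 (SE 0.11, adjusted p = 0.000172) to Hmga2, a chromatin protein of young progenitors, at -0.49 (SE 0.14, adjusted p = 0.0285), and 0 peaked. Those counts were 7 and 6 without E17 replicate 1, 8 and 5 without E17 replicate 2, and 4 and 0 to 4 without any other single library, the 0 without E12.5 replicate 1 or E15.5 replicate 2.

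Of 10 deep layer and subplate genes, 7 were higher and 1 lower (12.6% and 11.0% of all genes), with a median of 0.32. Against E12.5 alone 8 were higher and 0 lower (23.4% and 42.3% of all genes). Against P0 alone 3 were higher and 7 lower (42.3% and 22.9%). The highest was Hivep2, a zinc finger factor, at 0.89 (SE 0.10, adjusted p = 0.000149) and the lowest Foxp1, a forkhead factor, at -0.39 (SE 0.06, adjusted p = 0.00173); only Sox5 peaked. Of 5 upper layer genes, 3 were higher and 0 peaked, with a median of 0.34. Of 28 synaptic genes, 8 were higher and 5 lower, again against 12.6% and 11.0%, and 0 peaked. In the middle 25 of the 28 were above E12.5 (23.4% of all genes) and 0 below. Against P0 alone 0 were higher and 26 lower (22.9% of all genes). The contrasts ran from Grin2b, an NMDA receptor subunit, at 0.93 (SE 0.18, adjusted p = 0.00451) to Camk2a, a synaptic kinase, at -0.89 (SE 0.08, adjusted p = 3.77e-05). For Grin2b the E17 libraries differed widely, with 191 and 79.2 TPM. The median of the synaptic list was 0.16, and -0.18 when both E17 libraries were left out. Leaving out E17 replicate 1 gave 12 higher and leaving out E17 replicate 2 gave 17, with 2 dipped in each, and the middle taken without E17 gave 1 higher and 13 lower.

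**Figure D4:**
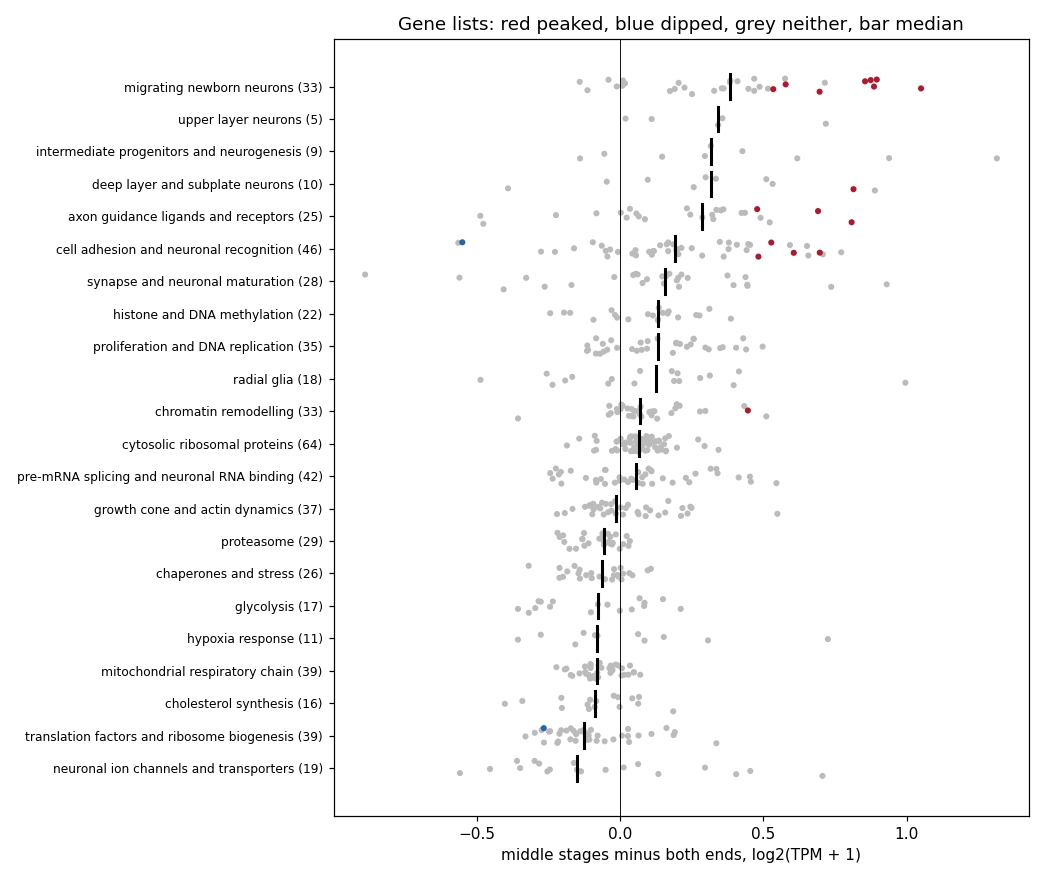
Contrast of the middle stages minus both ends on log2(TPM + 1), 1 point a gene, for 22 gene lists with the number tested in brackets; red peaked, blue dipped, grey neither, black bar the list median. Medians run from 0.38 for migrating newborn neurons to -0.15 for ion channels. Red points number 8 in the migration list, 4 in adhesion, 3 in guidance, and 1 each in the deep layer and chromatin remodelling lists. Most of the 98 peaked genes are in none of the lists, so the points do not describe the peaked genes as a set.

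The 91 dipped genes changed less than the peaked ones, with a median contrast of -0.34 on the log2 scale, a value that chose them. The contrast was -0.5 or lower for 17 of them. The lowest stage mean was at E15.5 for 60, at E17 for 28 and at E14 for 3, and the highest at E12.5 for 44 and at P0 for 43. The 6 middle libraries lay below all 4 end libraries for 36, where 1.01% of all genes had that order. Between E12.5 and E14, 9 of the 91 fell (4.78%). Between E14 and E15.5, 54 of the 91 fell (33.3% of all genes did) and 0 rose, and between E17 and P0, 69 rose (12.9%) and 0 fell. P0 was called above E12.5 for 12 (27.1% of all genes), below it for 14 (51.0%) and not called for 65.

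Metabolic and trafficking enzymes were among the leading dipped genes. Gatm, the first enzyme of creatine synthesis, measured 15.4 and 15.8 TPM at E12.5, 15.2 and 14.5 at E14, 9.86 and 8.63 at E15.5, 10.5 and 13.0 at E17, and 24.7 and 26.1 at P0. The middle was below the ends in every library, but E14 lay close under E12.5, and the contrast of -0.72 (SE 0.08, adjusted p = 0.000116) came more from P0 (-1.05) than from E12.5 (-0.38). Gatm was no longer called dipped without E12.5 replicate 2, under quantile normalization, after a correction for transcript length and GC content, or with the middle without E15.5. Snx8, a sorting nexin of endosomes, measured 21.2 and 22.4 TPM at E12.5, 18.9 and 17.8 at E14, 13.1 and 11.9 at E15.5, 14.3 and 13.5 at E17, and 22.6 and 19.7 at P0. Its ends were alike, its middle libraries were all lower, and its contrast of -0.51 (SE 0.07, adjusted p = 0.000436) kept the call in all 26 alternatives. Sfxn1, a mitochondrial serine transporter, measured between 106 and 134 TPM in the middle against 145 to 191 at the ends (contrast -0.47, SE 0.05, adjusted p = 8.18e-05). The correction for transcript length and GC content ended its dipped call. Pla2g12a, a secreted phospholipase A2, measured between 10.6 and 16.3 TPM against 17.4 to 22.5 (contrast -0.48, SE 0.07, adjusted p = 0.000473).

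**Figure D5:**
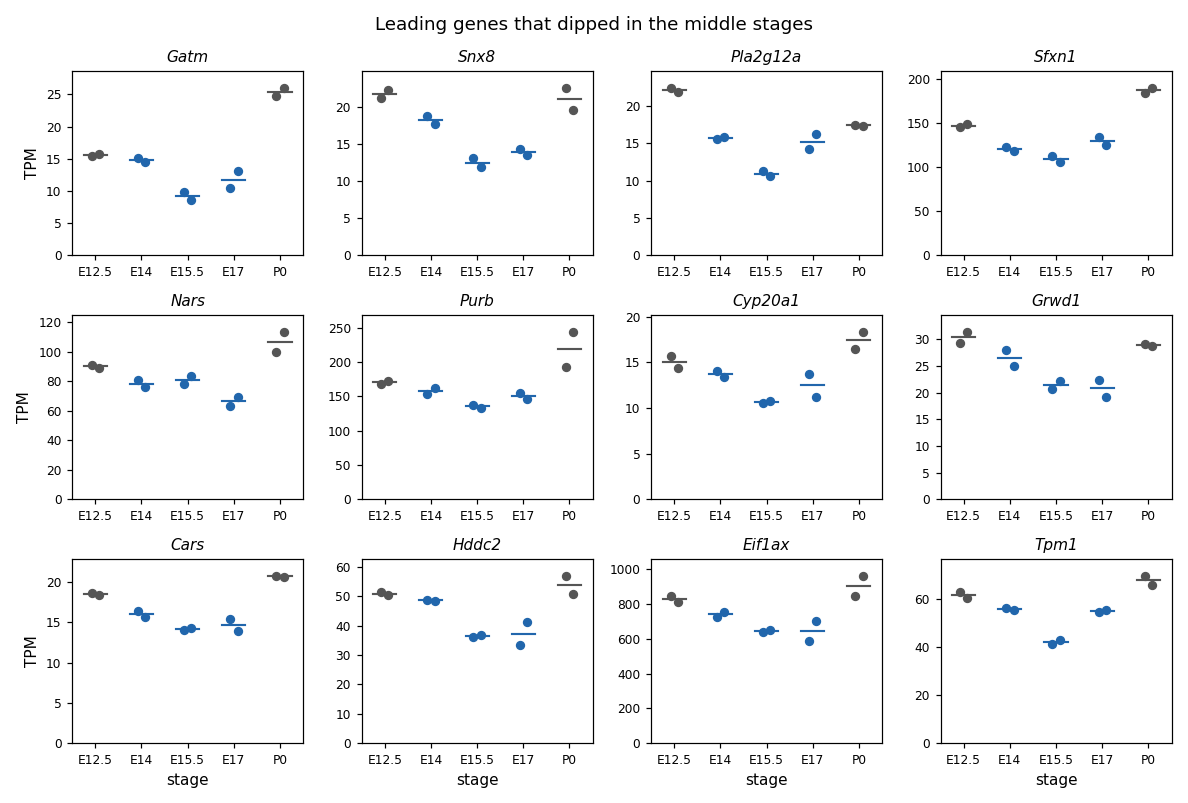
TPM in each library (points) and the mean of the 2 replicates (bar) by stage for the 12 dipped genes with the largest negative contrasts among genes that average 10 TPM or more and whose middle and end libraries do not overlap; middle stages in blue, ends in grey, each y axis from 0. Every blue point lies below every grey point within its panel, and the drop is shallow: Eif1ax reads 587 to 751 TPM in the middle and 809.9 to 963 at the ends.

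Genes of protein synthesis formed the other part of the leading dipped genes. Eif1ax, which encodes the initiation factor eIF1A, had the highest level, with 845 and 809.9 TPM at E12.5, 727 and 751 at E14, 639.6 and 651 at E15.5, 587 and 700.3 at E17, and 843 and 963 at P0. The groups did not overlap, and the contrast was -0.36 (SE 0.06, adjusted p = 0.0027). It was no longer called dipped without E12.5 replicate 1, under median-of-ratios scaling or after the correction for transcript length and GC content. Grwd1, a ribosome assembly protein, measured between 19.2 and 28.0 TPM in the middle and between 28.7 and 31.4 at the ends (contrast -0.37, SE 0.07, adjusted p = 0.0032). The transfer RNA synthetases Nars (asparagine) and Cars (cysteine) dipped by -0.38 (SE 0.06) and -0.37 (SE 0.06), with adjusted p = 0.000877 and 0.00192 in limma. Both calls were lost without E12.5 replicate 1, and that of Cars also without E12.5 replicate 2. That of Nars was also lost under quantile normalization, median-of-ratios scaling and the correction for transcript length and GC content, and with the middle without E17. Eif2s2, the beta subunit of eIF2, dipped by -0.27 (SE 0.07, adjusted p = 0.023) and was the dipped gene nearest the threshold, kept in 11 of 26 alternatives and lost without any single library other than those of E17.

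Of 39 genes for translation factors and ribosome biogenesis, 11 were lower (11.0% of all genes were) and 3 higher (12.6%), and the median was -0.13. The number lower was 18 without E17 replicate 1, 21 without E17 replicate 2, and 2 to 10 without any other single library, lowest without E12.5 replicate 2 or E15.5 replicate 1. The highest was the helicase gene Eif4a2 at 0.34 (SE 0.06, adjusted p = 0.0027) and the lowest Eif4g1, a scaffold of the cap complex, at -0.33 (SE 0.09, adjusted p = 0.0199), which fell from E12.5 and did not dip. Of 64 cytosolic ribosomal protein genes tested, 3 were higher and 0 lower (12.6% and 11.0% of all genes), with a median of 0.07. These counts moved with single E17 libraries, and 42 were higher and 6 peaked without E17 replicate 1, and 7 were higher, 9 lower and 3 dipped without E17 replicate 2. The extremes were Rpl13a at 0.34 and Rplp1 at -0.19. Genes of this family have many near-identical copies, so their single values are uncertain. Their summed level ranged from 59999 to 96228 TPM in the middle, lowest in E17 replicate 1, and from 70733 to 89727 TPM at the ends.

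The remaining leading dipped genes were Purb, a nucleic acid binding protein (-0.38, SE 0.06), Hddc2, an HD domain protein (-0.37, SE 0.07), Cyp20a1, a cytochrome P450 (-0.38, SE 0.08), and Tpm1, an actin-binding tropomyosin (-0.35, SE 0.05), with adjusted p-values in limma between 0.00068 and 0.00494. Purb was the least stable of them, kept in 14 of 26 alternatives, and lost without any single E12.5, E14 or E15.5 library. Hddc2 lost the call without E12.5 replicate 1, and Cyp20a1 without either E12.5 library, E14 replicate 2 or E15.5 replicate 1. Under median-of-ratios scaling none of these 4 was called dipped. Quantile normalization ended the call of Purb, Cyp20a1 and Hddc2, and the correction for transcript length and GC content that of Cyp20a1 and Tpm1. Respiratory chain, proteasome and chaperone genes showed no gene higher (0 of 39, 0 of 29 and 0 of 26) and 4, 3 and 4 lower, where 11.0% of all genes were, with medians of -0.08, -0.06 and -0.06 and 0 peaked or dipped. The numbers lower were 17, 12 and 11 without E17 replicate 2 and 5, 6 and 6 without E17 replicate 1, when 2 respiratory chain and 2 chaperone genes were higher. They were 0, 0 and 1 without either E12.5 library or E15.5 replicate 1, and at most 3, 3 and 5 without any other single library. Of 17 glycolysis genes 6 were lower and 1 higher (2 without E17 replicate 2, 0 without E12.5 replicate 1), between the lactate dehydrogenases Ldhb at 0.21 and Ldha at -0.36. Of 19 ion channel and transporter genes 7 were lower and 4 higher (11.0% and 12.6% of all genes), with 11 lower without E17 replicate 1 and 4 without E12.5 replicate 1, and a median of -0.15 that turned to 0.23 with the middle taken without E14. They ran from Cacna1e, a calcium channel subunit, at 0.71 to Slc6a11, a GABA transporter, at -0.56.

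Some dips were deeper but uneven, with E14 near one end, and 3 are given after their values were seen. Tuba4a, an alpha-tubulin, measured 13.0 and 17.3 TPM at E12.5, 17.6 and 16.4 at E14, 7.36 and 6.70 at E15.5, 7.40 and 6.91 at E17, and 25.9 and 26.3 at P0. Only its E15.5 and E17 libraries lay under all end libraries, and the contrast of -0.98 (SE 0.08, adjusted p = 3.49e-05) kept the dipped call in all 26 alternatives. Tfrc, the transferrin receptor that takes up iron, measured 47.1 and 46.0 TPM at E12.5, 16.3 and 15.6 at E15.5, and 29.6 and 28.4 at P0 (contrast -0.69, SE 0.07, adjusted p = 0.000116), and lost the call without P0 replicate 1. Serpinf1 (PEDF), a secreted serpin, had the largest negative contrast of the dipped genes at -1.05 (SE 0.08, adjusted p = 2.22e-05), but at low levels, with 6.30 and 6.89 TPM at E12.5, 5.11 and 5.16 at E14, at most 0.275 at E15.5 and E17, and 1.77 and 1.32 at P0. It kept the call in 15 of 25 alternatives and lost it without any single E14 or E15.5 library or P0 replicate 1.

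Markers of other cells moved over the same stages. Of 11 astrocyte genes tested, 7 were lower in the middle (11.0% of all genes) and 0 higher (12.6%), with a median of -0.25 and summed levels of 489 to 704 TPM in the middle against 717 to 797 at the ends, without overlap. Against E12.5 alone 4 were higher and 3 lower (23.4% and 42.3% of all genes), with a median of 0.04. Against P0 alone 2 were higher and 7 lower (42.3% and 22.9% of all genes), with a median of -0.63. Only 1 of these 11 genes dipped. Among them Apoe, a lipid carrier, dipped, with 47.7 and 45.3 TPM at E12.5, 53.2 and 46.2 at E14, 22.0 and 24.2 at E15.5, 42.3 and 43.4 at E17, and 114 and 90.1 at P0. It overlapped with E12.5 at E14 and was far highest at P0 (contrast -0.89, SE 0.07, adjusted p = 3.49e-05). Its call was lost without E12.5 replicate 1, under quantile normalization or median-of-ratios scaling, and with the middle without E15.5. Of 16 meningeal and matrix genes 12 were lower (11.0% of all genes) and 0 dipped. In the middle 15 of the 16 were below E12.5 (42.3% of all genes) and 14 above P0 (42.3%). With the middle taken without E15.5, 0 were lower and 1 higher. Their summed levels were 1051 to 1111 TPM at E12.5, 844 to 853 at E14, 107 to 110.2 at E15.5, 157 to 187 at E17 and 68.3 to 82.9 at P0. Of 7 erythroid genes 6 were lower (11.0% of all genes), but 3 and 2 with the first and the second E12.5 library left out, summed at 4452 to 4624 TPM at E12.5, 2001 to 2094 at E14 and 116 to 149 from E15.5 on, and the haem enzyme gene Fech dipped by -0.22 (SE 0.06, adjusted p = 0.0168), a call kept in 15 of 25 alternatives. The 3 choroid plexus genes summed to 516 to 665 TPM at E12.5, 1584 to 1681 at E14 and 52.2 to 124.6 from E15.5 on. The part of these cells in the dipped genes was not tested. None of these lists held a gene listed at 0 in every library, and 0 of their genes peaked.

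Peaked and dipped genes differed in length. The median transcript of the peaked genes had 4605 bases and that of the dipped genes 2783, against 3398.5 over all genes tested, with median GC contents of 50.3%, 49.3% and 49.8%. E17 replicate 1 was above replicate 2 for 87 of the 98 peaked genes, where it was for 72.0% of all genes tested, and below it for 42 of the 91 dipped genes. With E17 replicate 1 left out, and likewise with E17 replicate 2 left out, all 98 and all 91 kept the sign of the contrast. A fit with 1 or no E17 library takes no spread from E17, the stage whose replicates differed most. Calls kept in such a fit are therefore a description and no test of the E17 difference. With both E17 libraries left out, 87 of the 98 remained peaked and 81 of the 91 remained dipped. With a correction for transcript length and GC content within each library, 82 and 58 remained.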

How the data were processed

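The authors deposited 1 table of TPM values for 6147 genes in 10 libraries, 2 per stage, with the unit given per the file headers. The submitters' processing notes name STAR, Subread and GRCm38.p5 without role or order; no source used here gives the annotation, gene lengths, strand setting or rule for listing rows. Read depth is unknown, since TPM keeps none. Per the labels' protocols, libraries were made with a stranded polyadenylated RNA kit.

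From the deposited TPM, log2(TPM + 1) was computed for genes averaging 1 TPM or more, so fold changes of low genes are understated. limma 3.58.1 (R 4.3.3) fitted 1 mean per stage over all 10 libraries with moderated variances and a trend on mean level, and Benjamini-Hochberg adjustment ran over all 6048 genes in each contrast, with a threshold of 0.05. The fit was tested on simulated data. Of 200 genes shifted by 0.5 in the middle stages, 185 were called peaked or dipped, and of 5248 unchanged genes 2 were. The simulation gave all 10 libraries the same spread for a gene, so it did not cover the wider spread at E17. Gene positions and transcript lengths came from GENCODE M21. Plots used matplotlib 3.10.9.

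Genes were named by rule: the 12 peaked and 12 dipped with the largest contrast, an average of 10 TPM or more and middle libraries apart from the end libraries; up to 3 peaked genes per highest stage; the peaked, dipped, highest and lowest members of the lists described; and the peaked and dipped gene with the highest level. Some genes lay outside the rule, among them Serpini1 and those given after their values were seen. Members, lists and tests were chosen with earlier results of these data known. Alternatives changed the pseudocount, the filter, the scaling, the variance model, the threshold, the stages taken as middle and the libraries used; the correction for length and GC content and the fit without both E17 libraries were added after seeing the data.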

Additional observations from a re-analysis of the deposited data

How the results depend on the processing

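All 98 peaked and all 91 dipped genes kept the sign of the contrast in every alternative in which they were tested. Of the 98, 29 were called peaked in all 26 alternatives and 68 under all 3 other scalings; of the 91, 9 and 38. With an adjusted p under 0.01, 381 genes were higher, 294 lower, 53 peaked and 35 dipped, and with a minimum change of 0.5 these were 129, 74, 39 and 17, both by construction fewer. With the middle taken without E14 they were 1154, 1509, 159 and 171, and without E15.5 317 were lower and 37 dipped. Quantile normalization gave 137 dipped genes, of which 46 were among the 91. The correction for transcript length and GC content gave 1280, 1416, 171 and 230, and leaving out both E17 libraries gave 1565 higher, 1242 lower and 182 dipped; the cause was not tested. Leaving out 1 library gave between 395 and 1725 higher, 289 and 1308 lower, 55 and 257 peaked, and 40 and 197 dipped genes. The lowest counts came without an E12.5 library, and the highest without an E17 library: without E17 replicate 1 1308 were lower and 197 dipped, and without E17 replicate 2 1725 were higher, 1082 lower, 257 peaked and 181 dipped. The dipped count also fell by more than 1.5 times without E14 replicate 2 (56), E15.5 replicate 1 (56) or E15.5 replicate 2 (54), as did the numbers higher (496, 493 and 489) and lower (407, 403 and 386). The share of called genes that were higher was 53.2%, but 43.3% with the middle without E14, 64.5% without E15.5, and 49.9% under quantile normalization. Hmga2 turned to 0.50 with the middle without E17 and with both E17 libraries left out, Aurkb to -0.040 and Slc6a11 to 0.36 with the middle without E14. Of 2186 named gene values under alternatives, 2028 kept direction and call, 113 lost the call, 21 gained it and 24 changed sign, 20 of them without a call before or after. Those 20 were of Igsf8 (0.0886) and Flna (0.0625) with the middle without E15.5, Rfc3 (0.0648) and Rplp1 (0.000355) with the middle without E17 or both E17 libraries out, and Cux1, Uqcrh and Psmb5. Cux1 read -0.00566 with the middle without E14, -0.00699 without E17 or with both E17 libraries out, -0.00632 by the quadratic contrast and -0.163 after the length and GC correction; Uqcrh read -0.0120 and Psmb5 -0.0390 with the middle without E14. Leaving out 1 library gave -0.0252 to 0.0641 for Cux1, -0.0571 to 0.198 for Uqcrh and -0.00924 to 0.0781 for Psmb5. Of the steps between neighbouring stages, that from E15.5 to E17 changed sign when 1 library was left out for Kcnj11 (-0.341 to 0.439), Nuak1 (-0.487 to 0.0157), Xpr1 (-0.0587 to 0.370), Nedd4l (-0.209 to 0.168), Palmd (-0.199 to 0.0552), Frmd4b (-0.106 to 0.119), Grwd1 (-0.150 to 0.0578), Cars (-0.0256 to 0.115), Hddc2 (-0.126 to 0.170) and Eif1ax (-0.135 to 0.118), and that from E14 to E15.5 for Nars (-0.00917 to 0.0865). Replicate numbers did not pair the libraries, with correlations of deviations between -0.37 and 0.11, and with the number as a replicate block 701 genes were higher, 591 lower, 93 peaked and 78 dipped. With 2 libraries a stage and no read depth, small turns were limited by the spread between libraries.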

Other observations

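Transfer RNA synthetases, enzymes that load amino acids onto transfer RNAs, were looked at as a family after the values of Nars and Cars were seen. Of 20 tested, 19 had a contrast of the middle stages minus both ends below 0 and 1 above, from -0.38 to 0.07, with a median of -0.18 against 0.01 over all genes. A contrast below 0 was not by itself a dip. Several of the 19 had a middle between the ends, such as Tars, at -0.64 from E12.5 and 0.43 from P0. Others lay below both, such as Gars, at -0.13 and -0.39. By the limma test 10 of the 20 were lower (11.0% of all genes) and 0 higher (12.6%). Nars, Cars and Wars, 3 of the 20, dipped (1.50% of all genes). Wars, for tryptophan, had a contrast of -0.25 (SE 0.06, adjusted p = 0.00897), and the highest was Sars, for serine, at 0.07. The choice was made on these data, and the count is a description.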
